A study of Mus musculus with 3 samples.

Results

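Site-poor bins are stretches of the mouse genome in which Foxp3 CUT&RUN of macrophages listed almost no peaks. The chromosomes 1 to 19 and X (mm10) were cut into 100 kb bins, and a bin was taken when its replicate 2 list held no peak summit and its replicate 1 list held 1 to 5 summits. The members were thus selected on the measured peak lists of both replicates. They numbered 525 of the 25684 bins with at least 1 replicate 1 summit, or 2.04%, and came to 52.5 Mb. A further 642 bins without a replicate 1 summit were left out as likely assembly gaps.

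The study profiled Foxp3 in bone marrow-derived macrophages, which are grown from marrow progenitors in M-CSF-conditioned medium. Of its 3 samples, 2 are Foxp3 libraries (replicates 1 and 2, Invitrogen antibody) and 1 is an IgG isotype library whose values were not analysed here, so no background measured in the same way stands beside any value. All cells were fixed in 0.1% formaldehyde for 2 min. The title of the series names stimulation by damage-associated molecules from brain, but the labels of the libraries do not say which received it, nor do they give strain, age or sex of the mice or whether the replicates came from separate cultures. Replicate 1 held 33294105 fragments and 556535 peaks, and replicate 2 held 34898401 fragments and 95135 peaks. The peak lists hold no expression values, so the cell type could not be checked against expressed markers.

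Foxp3 is a forkhead transcription factor known as the defining regulator of regulatory T cells. In CUT&RUN an antibody brings a nuclease to its target, and the freed fragments map where the target sits or where DNA is easily cut, above all at open promoters and enhancers. Much of a mammalian genome holds few such elements in any given cell type: gene-free stretches, the interiors of very long genes of the nervous system, and clusters of tandem gene copies such as the olfactory receptors, which are kept silent outside the nose. Promoters of broadly expressed genes usually lie in CpG islands, which are short stretches that have kept their CG dinucleotides, whereas promoters of many tissue-restricted genes have lost most of theirs.

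To show this range, 6 promoter windows are printed, since the results turn on their CG content and on their copies elsewhere. Each window runs from 250 bases before to 50 bases after an annotated RefSeq start (GRCm38.p6, the assembly of mm10), 5′ to 3′ on the strand of the gene, with every CG in capitals.
Olfr1094 (olfactory receptor, chr2:86828426-86828725, plus strand): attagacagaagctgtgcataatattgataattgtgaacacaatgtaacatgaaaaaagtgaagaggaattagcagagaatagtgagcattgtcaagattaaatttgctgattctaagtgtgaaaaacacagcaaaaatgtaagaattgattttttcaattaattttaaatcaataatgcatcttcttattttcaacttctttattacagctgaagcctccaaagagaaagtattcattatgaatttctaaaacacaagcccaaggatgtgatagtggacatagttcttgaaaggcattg
Olfr1249 (olfactory receptor, chr2:89630847-89631146, minus strand): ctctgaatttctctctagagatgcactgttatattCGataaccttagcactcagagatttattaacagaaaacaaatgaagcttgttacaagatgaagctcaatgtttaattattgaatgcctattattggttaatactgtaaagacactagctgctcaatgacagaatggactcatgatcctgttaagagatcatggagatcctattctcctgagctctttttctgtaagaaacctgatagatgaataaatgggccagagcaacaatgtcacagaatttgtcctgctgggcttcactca
Gm14596 (predicted gene, chrX:54348862-54349161, plus strand): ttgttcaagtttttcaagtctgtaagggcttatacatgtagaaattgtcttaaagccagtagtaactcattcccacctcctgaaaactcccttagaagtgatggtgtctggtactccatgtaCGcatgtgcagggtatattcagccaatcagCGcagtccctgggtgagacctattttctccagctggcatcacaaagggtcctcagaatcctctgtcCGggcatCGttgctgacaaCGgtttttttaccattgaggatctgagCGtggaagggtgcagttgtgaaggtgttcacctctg
Kcnh7 (potassium channel, chr2:63184238-63184537, minus strand): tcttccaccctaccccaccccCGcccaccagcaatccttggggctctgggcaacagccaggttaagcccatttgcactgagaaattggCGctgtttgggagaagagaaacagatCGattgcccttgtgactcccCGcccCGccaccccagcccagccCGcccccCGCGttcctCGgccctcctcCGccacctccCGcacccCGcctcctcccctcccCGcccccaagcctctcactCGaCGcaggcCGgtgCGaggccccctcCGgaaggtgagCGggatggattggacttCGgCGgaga
Grik2 (kainate glutamate receptor subunit, chr10:49788705-49789004, minus strand): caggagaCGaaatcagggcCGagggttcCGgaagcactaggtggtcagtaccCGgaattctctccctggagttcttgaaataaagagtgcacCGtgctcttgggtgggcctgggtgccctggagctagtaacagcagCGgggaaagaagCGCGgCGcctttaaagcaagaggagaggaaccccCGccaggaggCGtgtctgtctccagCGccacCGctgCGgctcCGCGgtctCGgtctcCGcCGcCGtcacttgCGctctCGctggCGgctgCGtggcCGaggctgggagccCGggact
Emc7 (housekeeping gene, chr2:112454775-112455074, plus strand): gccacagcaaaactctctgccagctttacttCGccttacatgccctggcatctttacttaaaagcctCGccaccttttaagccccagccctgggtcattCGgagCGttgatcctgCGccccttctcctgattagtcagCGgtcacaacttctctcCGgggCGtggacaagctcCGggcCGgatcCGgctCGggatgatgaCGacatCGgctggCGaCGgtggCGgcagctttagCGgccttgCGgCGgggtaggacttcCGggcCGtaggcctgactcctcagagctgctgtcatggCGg
The windows of Olfr1094 and Olfr1249 hold 0 and 1 CG, the lowest and the median among the olfactory receptor and list genes that lie in site-poor bins and have a window. Grik2 holds 26, the highest of these genes, and Emc7 holds 23, the median of the housekeeping list. Gm14596 and Kcnh7 were chosen after their values were seen, Gm14596 as a copied window with 6 CG and Kcnh7 as the window of a site-poor bin with the most CG (21). Within 1 kb of the start, no peak of either replicate was listed at Olfr1094, Olfr1249 or Gm14596. Kcnh7 had 2 replicate 1 peaks there, the stronger at a fold enrichment of 10.1, and no replicate 2 peak. At Grik2 the replicate 1 peak had a fold enrichment of 18.7 and the replicate 2 peak 8.64, and at Emc7 these were 4.50 and 6.48. The start of Grik2 lies in a bin with 6 replicate 1 and 3 replicate 2 summits, outside the site-poor bins that hold 57.4% of the gene.

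The count of summits per bin was continuous across the limits of the rule. The median over all 25684 bins was 18 summits in replicate 1 (highest 69) and 3 in replicate 2 (highest 32). Among bins with no replicate 2 summit, 24 had 1 replicate 1 summit, 49 had 2, 85 had 3, 140 had 4 and 227 had 5. Just outside the limit, 250 such bins had 6 and 257 had 7. With 1 to 5 replicate 1 summits but replicate 2 summits present, 485 bins held 1 replicate 2 summit, 250 held 2 and 71 held 3. The plot of counts per bin shows the members as the low edge of a single broad distribution, with no gap around the limit.

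**Figure D1:**
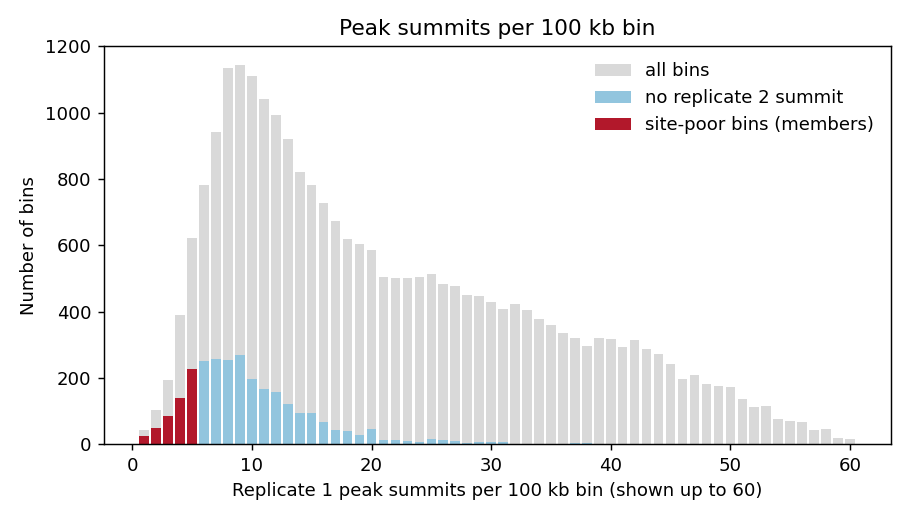
Number of 100 kb bins (vertical axis) by replicate 1 peak summits per bin (horizontal axis, shown up to 60). Grey bars are all bins, blue bars those without a replicate 2 summit, and red bars the 525 site-poor bins, which form the low end of the blue distribution.

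Site-poor bins were unevenly spread over the chromosomes, and X held the most. On X, 95 of 1661 bins were site-poor, or 5.72% (95% exact Clopper-Pearson interval 4.65 to 6.95%), against 430 of 24023 on the autosomes, or 1.79% (1.63 to 1.97%). These intervals, like all below, cover counting error only, and neighbouring bins are not independent. Among the autosomes the share ran from 0.505% on chromosome 11 (6 bins) to 3.36% on chromosome 16 (32 bins). X held 18.1% of the site-poor bins but 6.47% of all bins. It also held 11 of the 24 bins with a single replicate 1 summit, but 28 of the 227 with 5. The whole of X was listed more sparsely, with a median of 11 replicate 1 summits per bin against 19 on the autosomes. When the upper limit on X was scaled by these medians, to 3 summits, 40 of its bins (2.41%, 1.73 to 3.26%) were site-poor. The part of the dosage of X in this share was not tested, and the labels do not give the sex of the mice.

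**Figure D2:**
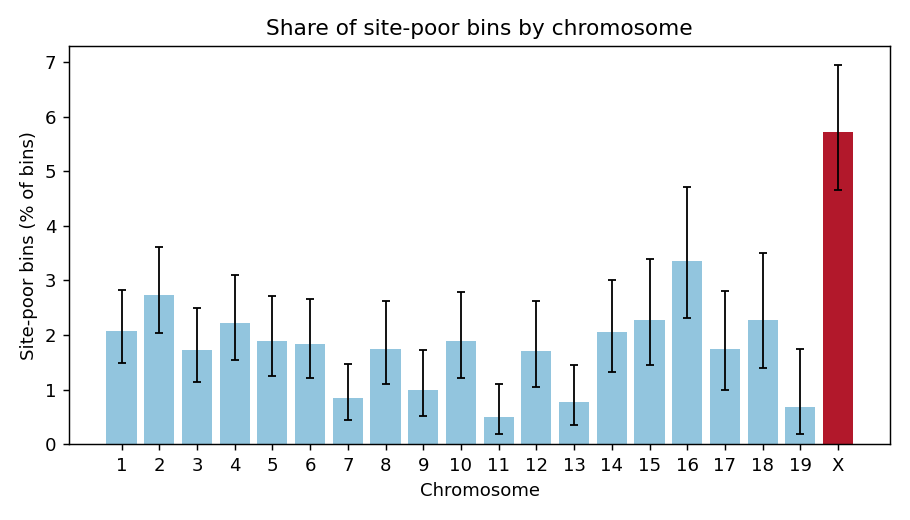
Share of site-poor bins (vertical axis, % of bins with a replicate 1 summit) on each chromosome (horizontal axis). Bars are shares and lines are 95% exact binomial intervals; X, in red, stands at 5.72%, above the interval of each autosome.

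The bins tended to lie inside wider zones of low peak count. They formed 454 runs, of which 399 were single bins, 48 were pairs, 4 held 3 bins, 2 held 4 and 1 held 10. Thus 126 bins, or 24.0% (20.4 to 27.9%), touched another member, and 375 (71.4%, 67.4 to 75.3%) had another member within 1 Mb. The bins bordering the runs had a median of 8 replicate 1 summits, and 74.2% of these 868 bins had 10 or fewer. Only 1.27% exceeded the overall median of 18. Counts rose slowly with distance, from a median of 8 at 0.1 Mb to 9 at 1 Mb, 11 at 2 Mb, 14 at 5 Mb and 15.5 at 10 Mb. Replicate 2 followed with a median of 1 up to 1 Mb and 2 from 2 to 10 Mb. Empty bins, the likely gaps, bordered 16 members (3.05%).

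**Figure D3:**
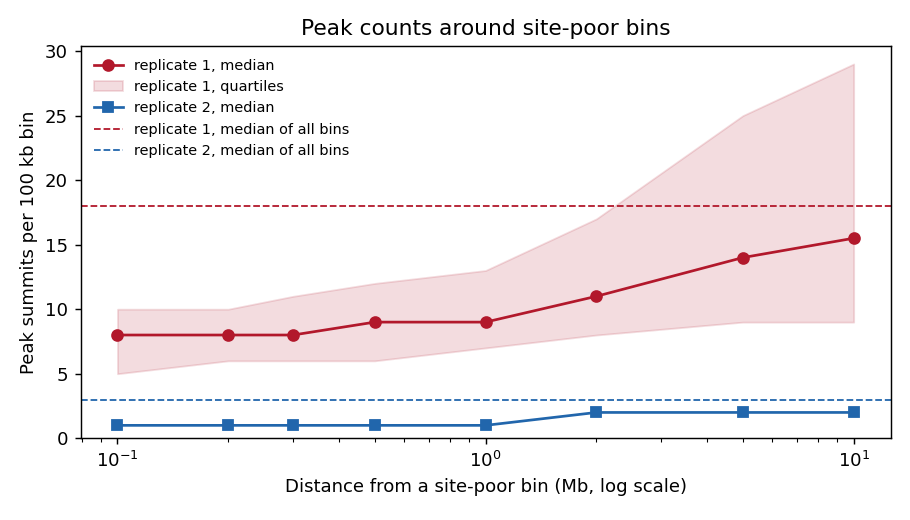
Peak summits per 100 kb bin (vertical axis) at increasing distance from a site-poor bin (horizontal axis, Mb, log scale). Points are medians, the band spans the quartiles of replicate 1, and dashed lines are the medians over all bins (18 and 3); both replicates stay below their dashed lines out to 10 Mb.

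The distance between the replicate 2 summits that flank a site-poor bin gives the width of each empty stretch. Its median was 244 kb (105 to 1807 kb), where neighbouring replicate 2 summits were in general 13.8 kb apart; the rule sets the lower end of the first value. The widest stretch was chrX:124209815-126016407, of 1807 kb, which held 15 site-poor bins, 2 bins without a replicate 1 summit, 39 replicate 1 summits and no protein-coding gene. It contains the longest run, chrX:125000001-126000000, whose 10 bins held 4, 1, 1, 1, 1, 2, 3, 1, 3 and 4 replicate 1 summits and 5 annotated pseudogenes. The run of 4 bins at chrX:124300001-124700000 lies in the same stretch, with 5, 2, 2 and 2 summits and 3 pseudogenes. The bins on the facing sides of these runs were empty of both lists.

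Other long runs held single members of gene families or parts of very long genes. The 4 bins of chrX:54300001-54700000, with 3, 4, 2 and 3 summits, held 1 predicted gene each: Gm14596, Gm14594, Gm16405 and Gm16430. On chromosome 2, the run at chr2:176200001-176500000 (5, 1 and 1 summits) held 2210418O10Rik and Gm14434. It lies in the next widest stretch without a replicate 2 summit, chr2:175810242-176715506, of 905 kb, which held 10 protein-coding genes, among them Zfp966, Zfp967 and Zfp973 of the zinc-finger type. The stretch directly before it, of 544 kb, held 7 more, among them Zfp965 and Zfp968. Together these stretches included 4 bins without a replicate 1 summit and 8 site-poor bins. The run at chr1:110800001-111100000 (5, 5 and 5 summits) held Cdh19, a cadherin of Schwann cells, and that at chr1:140400001-140600000 (2 and 5) lay in Kcnt2, a sodium-activated potassium channel. A further 3 runs lay partly in long neuronal genes: chr1:115500001-115800000 touched Cntnap5a, chr16:60100001-60400000 touched Epha6 and chr1:146500001-146700000 touched Brinp3. The run at chr1:101000001-101200000 (5 and 2 summits) held no protein-coding gene.

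The peaks inside site-poor bins were somewhat weaker than others of their library. These values come from the list that chose the bins and are given as a description. The 2072 replicate 1 peaks had a median pileup (fragments over the summit) of 17, against 21 for the 553462 peaks in other bins. Their median fold enrichment, which MACS2 gives as pileup over background within the library, was 4.76 against 4.92, and their median length 159 against 167 bp. The median −log10 q was 7.23 against 8.83. A fold enrichment of 10 or more was reached by 5.84% (4.87 to 6.94%) against 8.93%. Their summits rarely lay at genes: 27 of 2072 (1.30%, 0.860 to 1.89%) were within 1 kb of an annotated end of a protein-coding gene, against 5.98% in other bins. No replicate 1 peak in a site-poor bin was overlapped by a replicate 2 peak, as against 9.50% elsewhere; the rule all but fixes this, and 1 replicate 2 peak with its summit outside reached into a member.

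The strongest of these peaks stood far from genes. The highest fold enrichment, 25.1 (pileup 94), was at chr2:100034866-100035189, in a bin with 2 replicate 1 summits, 1526 kb from Iftap. The next, 23.8 (pileup 89), was at chr3:128369336-128369835, 473 kb from Fam241a. A peak at chr4:52292991-52293273 reached 23.3, at 146 kb from Smc2, which encodes a condensin subunit. Peaks at chr4:23741590-23741784 (21.4) and chr15:18057088-18057276 (20.6) were 755 kb from Mms22l, a DNA repair gene, and 762 kb from Cdh10, a neuronal cadherin. Each of the 5 lay 64.1 to 154 kb from the nearest replicate 2 summit, and the rule admits no such summit in their bins.

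Most site-poor bins held no protein-coding gene. They lacked one in 327 of 525 cases, or 62.3% (58.0 to 66.4%), where 35.6% of all bins did. An annotated end of a protein-coding gene was present in 75 bins (14.3%, 11.4 to 17.6%) against 50.4% of all bins, while 123 (23.4%, 19.9 to 27.3%) lay wholly inside genes, away from their ends, against 14.05%. Long non-coding RNA genes were present in 12.6% against 39.3%, and pseudogenes in 22.1% against 29.4%. No annotated gene of any kind was found in 38.3% of site-poor bins against 15.3% of all. The median distance from the bin centre to the nearest gene end was 296 kb, against 49.2 kb over all bins. Seen from the other side, 0.580% of bins with a gene end were site-poor, 3.41% of bins inside a gene and 3.58% of bins without a protein-coding gene.

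These features were shared with bins just outside the rule. Bins without a replicate 2 summit but with 6 to 10 replicate 1 summits lacked a protein-coding gene in 63.4% of cases (60.6 to 66.1%) and lay a median of 263 kb from a gene end. Bins with 1 to 5 replicate 1 summits and at least 1 replicate 2 summit lacked one in 63.1% (59.7 to 66.4%) and lay 279 kb away. The intervals of these groups overlap that of the site-poor bins. With 11 to 20 replicate 1 summits the share was 54.9%, and with over 20 it was 39.5%. Within the site-poor bins it was 50.6% for 3 summits and 65.6% for 5, with overlapping intervals.

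**Figure D4:**
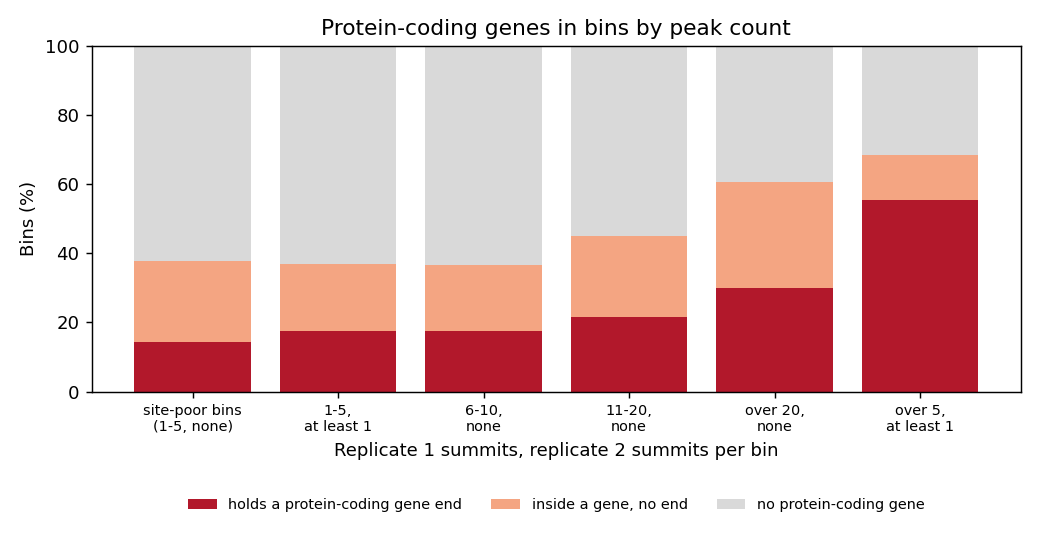
Share of bins (vertical axis, %) that hold a protein-coding gene end (dark red), lie inside a gene without its end (light red) or hold no protein-coding gene (grey), by the peak counts of the bin (horizontal axis, replicate 1 then replicate 2). The 3 groups at the left have grey parts of 62.3, 63.1 and 63.4%.

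Few genes lay in site-poor bins. By 50% or more of their length, 104 of 21631 protein-coding genes did (0.481%). Any overlap with a site-poor bin was found for 194 genes (0.897%). Pseudogenes lay there in 122 of 9852 cases (1.24%, 1.03 to 1.48%) and long non-coding RNA genes in 50 of 12697 (0.394%). The protein-coding genes had a median length of 10.5 kb, against 17.3 kb for all, and ranged up to 696 kb. Of the 104 genes, 54 held no peak of either replicate and 86 held no replicate 2 peak. A replicate 1 summit lay within 1 kb of a gene end for 35 and a replicate 2 summit for 13, where 84.6% and 61% of all protein-coding genes had one. The bins hold few summits by rule, so these counts only describe the genes.

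Olfactory receptors were the most frequent family. Olfactory and vomeronasal receptor genes made up 35 of the 104 genes, or 33.7% (24.7 to 43.6%), and 6.76% of all protein-coding genes. The 32 olfactory receptors, the odorant receptors of nasal neurons, lay in 8 bins, which held 1 to 6 of them each. On chromosome 2 these were Olfr1084 to Olfr1087, a group from Olfr141 to Olfr1097, a group from Olfr1160 to Olfr1164 with Olfr73, and Olfr1247 to Olfr1251. On chromosome 7 a pair of adjacent bins held Olfr309 to Olfr298, chromosome 9 added Olfr849 and Olfr850, and X added Olfr1322. The vomeronasal genes, which encode pheromone receptors, were Vmn2r35, Vmn2r36 and Vmn2r103. These are 3 of the 123 vomeronasal receptors of type 2, while 0 of 230 of type 1 lay in a site-poor bin (exact interval 0 to 1.59%). No peak of either replicate was listed within 28 of the 35 receptor genes. Most of these genes are short and their bins hold few summits by rule, so this count only describes them. Bins with an olfactory receptor gene were site-poor in 8 of 345 cases (2.32%, 1.01 to 4.52%), close to the 2.04% of all bins, with a median of 12 replicate 1 summits. Most bins with such a gene were not site-poor.

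Genes with provisional names made up another group, and some of them are tandem copies. Predicted genes with a Gm number were 20 of the 104 (19.2%) and 5.06% of all protein-coding genes, and 1.83% of them (1.12 to 2.81%) lay in site-poor bins. Of the Zfp and Zscan zinc-finger genes, 3 of 424 did (Zfp965, Zfp966 and Zfp973), or 0.708% (0.146 to 2.05%), near the 0.481% of all genes. Many stood side by side, as Gm14596, Gm14594, Gm16405 and Gm16430 did on X, and as Gm4724, Gm2007, Gm14288, Gm2026, Gm14434 and Gm14308 did in the zinc-finger region of chromosome 2. Other members of multicopy families were Pramel41 and Pramel45, Speer1, Mageb5 and Prl3d1. Gm4724 (gene ID 100043915, 286 kb) held 6 replicate 1 peaks and no replicate 2 peak, whereas Zfp966, Gm2026 and Gm14434 held no peak of either list.

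Of the list of liver, muscle and other tissue genes, 1 of 30 lay in a site-poor bin (3.33%, 0.0844 to 17.2%), an interval that includes the 0.481% of all genes. This was Prl (gene ID 19109, chr13:27057570-27065204), which encodes the pituitary hormone prolactin, lay wholly in a site-poor bin and held no peak. Other genes, named after their values were seen, were Csn3, a milk casein, Crisp3, a secretory protein, and Pgk2, the testis form of a glycolytic enzyme. None of these held a peak within the gene, but a replicate 1 peak with a fold enrichment of 6.61 lay within 1 kb of an end of Csn3. Of all 104 genes lying in site-poor bins, 54 held no peak of either replicate. Others did hold peaks, such as Sis with 4 replicate 1 peaks and 1 replicate 2 peak. Cdh9 (gene ID 12565, chr15:16728550-16857138), a neuronal cadherin, held 4 replicate 1 peaks of at most 3.70 and no replicate 2 peak.

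The longest genes lay in site-poor bins mostly with their bodies, away from their ends. The 10 longest were Grik2, Kcnt2, Ano3, Gm4724, Cfap47, Lrriq1, Efhc2, Prr16, Kcnj3 and Fndc3a, of 173 to 696 kb. Grik2 (gene ID 14806, chr10:49093680-49790161) spans 8 bins, of which 4 were site-poor, and held 38 replicate 1 and 6 replicate 2 peaks over its length. Kcnt2 (gene ID 240776, 368 kb) held 18 and 2, Ano3, a membrane protein of the anoctamin family, 22 and 1, and Kcnj3, an inward rectifier potassium channel, 10 and 1. Cfap47, a gene of the sperm flagellum on X, held 12 replicate 1 peaks of up to 19.8 in fold enrichment and no replicate 2 peak. Replicate 1 peaks came to 5.46 per 100 kb in Grik2, 4.89 in Kcnt2, 2.097 in Gm4724 and 11.6 in Fndc3a, where all bins averaged 21.6. Much of each gene lies in bins chosen for few summits, so low densities are partly set by the rule. Of the 18 genes of 100 kb or more, 12 had both ends outside site-poor bins and 14 held a replicate 2 peak. Genes of this length reach over more than 1 bin, and the rule admits no replicate 2 summit in a site-poor bin. The counts therefore only describe these genes, and no share over all genes of 100 kb or more is given here.

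Parts of a few broadly expressed genes lay in site-poor bins, and the 4 named here were picked out after their values were seen. Of these, 3 had peaks of both replicates at an end, and Fndc3a had none within 1 kb of either end. For Atrx, a chromatin remodeller on X, the strongest replicate 1 peak within 1 kb of an end had a fold enrichment of 13.0 and the strongest replicate 2 peak 6.23. For Stag2, a cohesin subunit on X, these values were 15.9 and 6.14. Cenpw, a centromere protein gene of 4.60 kb, had 24.1 and 6.87, and 86.9% of it lay in a bin with 2 replicate 1 summits. In Atrx, Stag2 and Cenpw the replicate 2 summit lay in a neighbouring bin, since the rule admits none, and the site-poor part was the rest of the gene. The edge of a bin therefore decides whether such a gene counts as lying in it.

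No gene of 5 immune cell lists or of the housekeeping list lay in a site-poor bin, although Rgs13, a signalling gene of B cells outside these lists, did (named after its values were seen). Upper limits beside a count of 0 are here 3 counts over the total, not exact interval bounds. Of the macrophage list (genes such as Csf1r, the M-CSF receptor), 0 of 30 lay in or touched one, which allows a share of up to 10.0%. The counts were 0 of 26 for inflammatory genes (up to 11.5%), 0 of 22 for Foxp3 and regulatory T cell genes (up to 13.6%), 0 of 19 for T cell genes (up to 15.8%), 0 of 20 for B cell and neutrophil genes (up to 15%) and 0 of 30 for housekeeping genes (up to 10.0%). At a background of 0.481% of genes lying there, lists of this size would seldom hold one, so the zeros are not a result about the lists. The bins that hold them give a closer view. The 39 bins with a macrophage list gene had a median of 33 replicate 1 summits and a minimum of 6, and the 39 with a housekeeping gene had 32 and 11. None of either was site-poor, which allows up to 7.69% by the same limit and, at the 2.04% of all bins, is no result about these lists.

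Genes of a list compiled for neurons and synapses often touched site-poor bins. The list also includes Dmd (dystrophin), Sgcz, Ctnna3 and Galntl6, and its genes were not checked for expression in neurons. Of this list of 43 genes, 2 (Grik2 and Cdh9) lay in site-poor bins by 50% or more, and 31 touched one, beside the 0.897% of all genes that did. Length bears on this count, as the median length of the list is 1077 kb. Among genes of 500 kb or more, 27 of the 34 on the list touched a site-poor bin (79.4%), against 26 of the 193 others (13.5%). Lengths above 500 kb were not matched between these groups, and a longer gene spans more bins. Counted by bins, 61 of the 516 bins with a gene of the list were site-poor (11.8%, 9.16 to 14.9%). Of bins with a gene of 500 kb or more outside the list, 43 of 1665 were (2.58%, 1.88 to 3.46%). The first group takes in all 43 genes of the list, including those under 500 kb. The median replicate 1 counts of these 2 groups of bins were 8 and 15 summits. The list was chosen with earlier results of these data known. Other long genes of neurons that touched a site-poor bin, such as Epha6, are not on it. Among genes of 500 kb or more the listed ones had the higher share, but these shares describe the list only. Whether genes of neurons in general exceed other genes of their length was not tested.

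Individual genes of the list differed in peak density along their whole length. Ptprd, a receptor phosphatase of synapses (2271 kb), had 5 site-poor bins of 24, with 152 replicate 1 and 16 replicate 2 peaks. Il1rapl1, a synaptic adhesion gene on X (1375 kb), had 3 of 15, with 72 and 10 peaks. Csmd3 (1212 kb) had 3 of 13, with 62 and 7, and the cadherin gene Cdh12 (1150 kb) had 3 of 12, with 76 and 13. Lrp1b, a lipoprotein receptor relative (2058 kb), had 3 of 22, with 128 and 25. Per 100 kb, replicate 1 peaks ranged over the 31 genes that touched a site-poor bin from 3.11 in Cdh9 and 3.75 in Pcdh9 to 13.9 in Ctnna3 and 16.7 in Opcml, a neuronal adhesion gene with 1 site-poor bin of 13. All of these were below the average of 21.6 over all bins. The genes were taken because they touch bins chosen for few summits, so low densities are partly set by the rule. Bins inside a gene without its end had a median of 17 replicate 1 summits. In Dmd, which encodes dystrophin and spans 2390 kb of X, 2 of 25 bins were site-poor, with 133 replicate 1 and 23 replicate 2 peaks.

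Promoters in site-poor bins were poor in CG. A RefSeq promoter window was found for 17274 protein-coding genes, and 78 windows of 75 genes had their start in a site-poor bin. The observed count of CG over that expected from the C and G content had a median of 0.15 (95% interval of the median 0.11 to 0.23) in these windows, against 0.57 in the 21035 windows of all bins. The median count of CG was 1 against 13. A ratio of 0.6 or more, as in CpG islands, was reached by 1 of 78 windows, that of Kcnh7 (1.28%, 0.0325 to 6.94%), against 48.2% of all. The 28 windows of receptor genes had a median ratio of 0.13, as against 0.11 for receptors in general. Among the other 50 windows the median was 0.23 (0.11 to 0.28), against 0.61 for all non-receptor windows. In bins without a replicate 2 summit outside the rule, the median was 0.16 with 6 to 10 replicate 1 summits and 0.16 with 11 to 20, within the interval of the site-poor bins, and 0.29 (0.22 to 0.41) with over 20, against 0.60 in bins with summits of both replicates and over 5 of replicate 1.

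**Figure D5:**
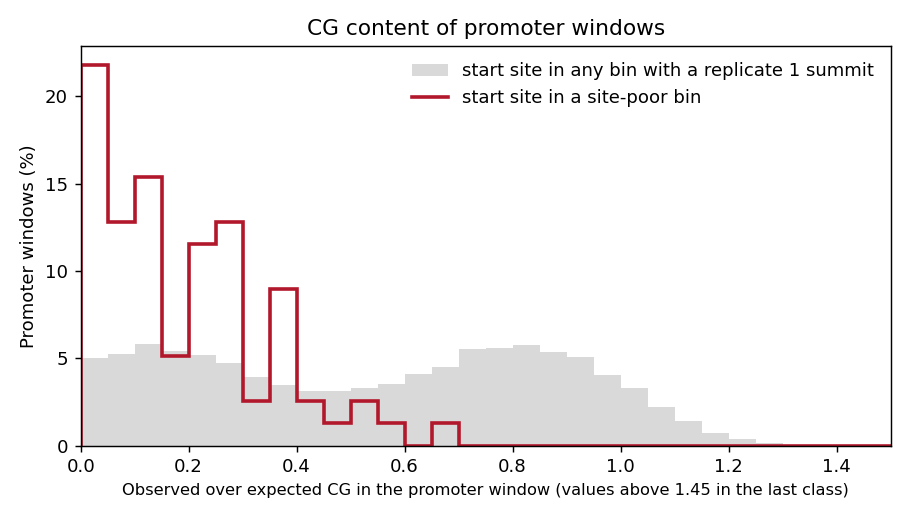
Share of promoter windows (vertical axis, %) by their observed over expected CG ratio (horizontal axis, in steps of 0.05). Grey bars are the 21035 windows of all bins and the red line the 78 windows that start in a site-poor bin; the red line ends below 0.7, and the grey bars have a broad second rise around 0.8.

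Some of these promoters are repeated elsewhere in the genome. A window was called copied when 50% or more of its 50-base words also occurred in a promoter window of another, non-overlapping gene. This held for 20 of 78 windows in site-poor bins (25.6%, 16.4 to 36.8%), against 3.65% of all windows. Most were on 2 chromosomes. On X there were 9, at several separate places, among them Gm14596, Gm16405, Gm16430, Gm10487 and Gm15085. The zinc-finger region of chromosome 2 held 8, from Gm4724 to Zfp973. The printed window of Gm14596 and that of Gm16405, 182 kb away, are identical at all 300 of 300 positions. Receptor windows were copied in 1 of 28 cases (Vmn2r35). In bins with 1 to 3 replicate 1 summits, 16 of 36 windows (44.4%, 27.9 to 61.9%) were copied, against 4 of 42 (9.52%, 2.66 to 22.6%) with 4 or 5. Taken over all bins, those with a gene whose window was copied were site-poor in 18 of 520 cases (3.46%, 2.06 to 5.42%), where 2.04% of all bins were, and had medians of 15 replicate 1 and 3 replicate 2 summits. The handling of reads that match several places is not stated in the labels or headers, and the part of repeated sequence in these low counts was not tested. The other windows were not copied by this measure, which compares promoter windows only.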

How the data were processed

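Deposited peak lists of 2 Foxp3 CUT&RUN libraries from mouse macrophages were analysed. Per the submitters' processing notes, CASAVA 1.4 and genome build mm10 were used, with no aligner named. Per the file headers, the authors called peaks with MACS 2.1.1.20160309 on each library separately, in paired-end mode, with no control, all duplicates kept, an effective genome of 1.87e+09 bases and a q-value limit of 1.00e-02. The deposited pileup is a signal (fragments over the summit), the deposited fold enrichment is a ratio to the background of the same library, and the deposited significance is a −log10 q-value. The smallest pileup listed was 10 in replicate 1 and 13 in replicate 2, so weaker sites could not be counted. Fragment sizes were 130 and 180 bp.

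Summits were counted per bin, and bins were compared with gene positions and promoter windows from RefSeq (GRCm38.p6). The gene table carries no strand, so both annotated ends of a gene were used; 4357 of the 21631 protein-coding genes had no promoter window. Windows of chromosome 18 were not used here. Genes were named by fixed rules: the 10 longest runs and their genes, the 10 longest genes, list genes lying in site-poor bins, the most frequent families, the 5 strongest peaks, and promoters with the lowest, median and highest CG count; all other genes named are examples chosen after their values were seen. Members, lists and rules were chosen with earlier results of these data known. No test was made, since bins and genes are not replicates and both libraries entered the rule. Intervals are exact (Clopper-Pearson) for shares, with 3 counts over the total as the limit beside a count of 0 in a list, and from order statistics for medians. The counting code was checked on artificial peaks. Python 3.11.15, pandas 2.3.3, numpy 2.4.6 and SciPy 1.17.1 were used.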

Additional observations from a re-analysis of the deposited data

How the results depend on the processing

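Over 11 other settings, the share of receptors among genes lying in site-poor bins (main value 33.7%, range 30.1 to 42.8%) and the median CG ratio of promoters (main value 0.15, range 0.13 to 0.22) stayed within the intervals of the main values. The other results moved with the limits. The number of bins, 525 in the main setting, was 1978 with 50 kb bins and 1 to 2 summits, 158 with 1 to 3 summits, 1752 with 1 to 10 summits and 1827 with peaks of −log10 q of at least 5, and with a single replicate it was 1351 without replicate 2 and 3375 without replicate 1. The share in runs, 24.0%, was 18.8% with bins shifted by 50 kb, 38.4% with 1 to 10 summits, 40.01% with stricter peaks, 20% on the autosomes, and 36.2 to 50.3% with a single replicate. The share without a protein-coding gene, 62.3%, was 54.4% with 1 to 3 summits. The share on X, 18.1%, was 12.4% with 50 kb bins, 25.3% with 1 to 3 summits, 11.8% with 1 to 10 summits, 11.5% with stricter peaks, 8.51% with the limit scaled on X (a setting added after the data were seen), and 9.42 to 16.3% with a single replicate. The median count beside runs, 8, was 7 with 1 to 3 summits and with stricter peaks, and 9 to 11 with a single replicate. The cause of these shifts was not tested. Counting any overlap of a peak, or leaving out bins beside an empty bin, moved none of 7 results.

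No paired analysis was possible because the members come from no test between groups and the IgG library was not analysed here. Replicate 2 listed far fewer peaks than replicate 1 at a similar number of fragments, so a bin without a replicate 2 summit is common, and 2735 bins with a replicate 1 summit lacked one. Without the genome sequence, gaps and repeats within bins were not measured.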

Other observations

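Short non-coding RNA genes also lay in site-poor bins, each kind named here at a share below the 2.04% of all bins that were site-poor. The counts only describe these genes. Of 1003 small nuclear RNA genes, which serve in splicing and include many degenerate copies, 17 lay there (1.69%, 95% exact interval 0.990 to 2.70%), and of 1340 small nucleolar RNA genes, guides of RNA modification, 9 did (0.672%, 0.308 to 1.27%). Among microRNA genes the count was 4 of 1228 (0.326%), and among variable segments of antigen receptor genes 4 of 394 (1.02%, 0.277 to 2.58%). Pseudogenes, at 1.24%, lay above the 0.481% of protein-coding genes but below the 2.04% of all bins that were site-poor. Counted by bins, pseudogenes were present in 22.1% of site-poor bins against 29.4% of all bins.

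Site-poor shares on X differed between gene classes. Of 167 X bins inside a gene without its end, 23 were site-poor (13.8%, 8.94 to 19.9%), against 100 of 3441 on the autosomes (2.91%, 2.37 to 3.52%). X bins without a protein-coding gene were site-poor in 53 of 735 cases (7.21%, 5.45 to 9.33%), an interval that overlaps that of gene interiors. X bins with a gene end were site-poor in 19 of 759 cases (2.50%, 1.51 to 3.88%), and autosomal ones in 56 of 12175 (0.460%, 0.348 to 0.597%). The median replicate 1 count in X bins inside a gene was 7 summits, against 17 on the autosomes. These shares use the same limit of 5 summits on X as elsewhere. With the limit scaled on X, 2.41% of X bins were site-poor in place of 5.72%, and shares by gene class under that limit are not given here.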
